A study of Eriocheir sinensis with 6 samples.

Results

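The 200 longest expressed genes of molt-period crab muscle are described here by their FPKM, by the share of their span that is exon, and by the ATAC-seq peaks at their starts and along their bodies. A gene counted as expressed when it belonged to the annotation, had a mean FPKM of at least 1 over the 3 RNA-seq libraries and was not among the 100 highest means. This left 10821 of the 21314 annotated genes, in a table that lists 28671 genes in all, and the 200 with the largest distance between listed start and end were taken (the long genes below). They are set against the 10621 other expressed genes and, where length alone could differ, against the 200 genes next in span.

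Walking-leg muscle came from 3 juvenile male Chinese mitten crabs (Eriocheir sinensis), labelled as WT and untreated, with 1 crab per sample. All belonged to 1 group, Mu_E, the molt period, in which the old exoskeleton is shed. The sample titles give period E, although the design text of the deposit names the stage D. Each crab's muscle was divided between RNA-seq and ATAC-seq, giving 6 libraries, Mu_E_1 to Mu_E_3 for each assay. Bulk muscle was measured, so fewer cells of a type and less RNA per cell cannot be told apart. The files pair no identifier with a gene name or function, and 0 identifiers matched the reference gene table, so neither the muscle label nor any pathway could be checked by named genes, and no role is given for any gene below.

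A gene's span is the stretch between its first and last annotated base and is mostly intron in long genes. Introns are transcribed and then removed, so FPKM, fragment counts divided by exon length and by library size, does not depend on span by construction. RNA polymerase needs longer to cross a long gene, and long introns often hold enhancers and other regulatory elements. ATAC-seq marks accessible DNA by the cuts of a transposase, and accessible sites are typical of active starts and of such elements.

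The spans of the 200 long genes ran between 117015 and 612235 bp, with a median of 152920 bp, against a median of 8315 bp in the other expressed genes. This difference is what chose them. Their exon models were longer too, with a median of 2917.5 bp against 1281 bp, yet exons filled little of the span. The median exon share was 1.67% in the long genes, with an interquartile range of 1.01 to 2.69%, against 18.5% in the other expressed genes and 2.92% in the 200 next in span. Summed over genes, exons made up 1.85% of the long genes' span, against 12.3% in the other expressed genes. Since span is the denominator of the share, part of this contrast follows from the way the genes were chosen. Exon share did not order the long genes by abundance, with a Spearman rho of 0.01 to mean FPKM across 200 genes that share the same libraries.

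**Figure D1:**
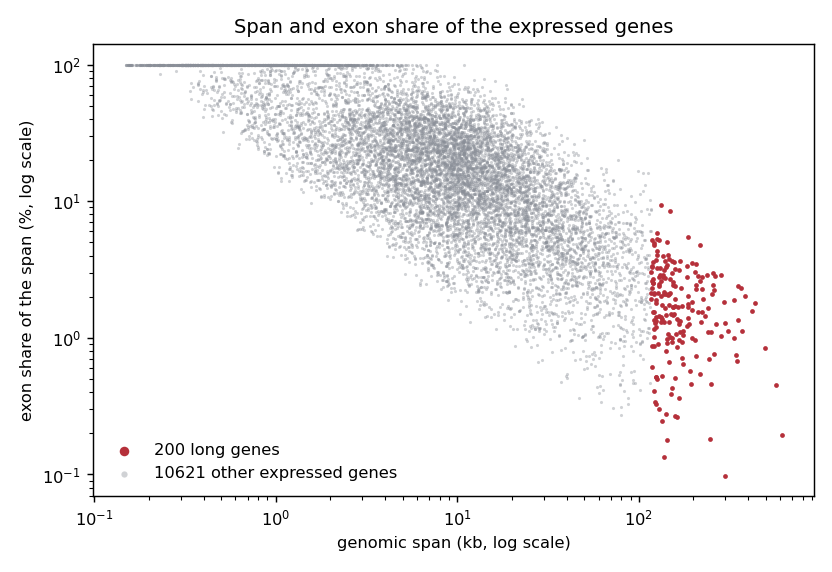
Exon share of the span (percent, log scale) against genomic span (kb, log scale) for the 200 long genes (red) and the 10621 other expressed genes (grey), 1 point per gene. The red points all lie below 10% exon, with a median of 1.67%, while the grey band reaches down to the red points at its long end.

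The range of exon shares among the long genes was wide. The lowest belonged to evm.TU.CM024152.1.83, with 292 bp of exon in a span of 297413 bp, a share of 0.098%. It was followed by evm.TU.CM024104.1.114 with 186 bp in 137891 bp (0.135%) and evm.TU.CM024161.1.66 with 255 bp in 142153 bp (0.179%). Models this short rest on few fragments. The gene evm.TU.CM024161.1.66 had 1, 10 and 16 fragments in Mu_E_1, Mu_E_2 and Mu_E_3, which gave 0.965, 10.1 and 5.63 FPKM. At the other end stood evm.TU.CM024143.1.337 with 12296 bp in 132002 bp (9.32%), evm.TU.CM024097.1.320 with 12590 bp in 148820 bp (8.46%) and evm.TU.CM024155.1.38 with 7323 bp in 125291 bp (5.84%).

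Several features of the annotation went with length. Identifiers that join 2 or more gene models numbered 28 among the long genes (14.0%), 10.5% of the 200 next in span and 134 of the other expressed genes (1.26%). The exon length was a multiple of 3 in 86 long genes (43.0%), against 52.0% of the 200 next in span and 69.5% of the other expressed genes. The long genes lay on 61 of the 72 numbered sequences with expressed genes, at most 7 on 1 sequence, with 97 on the plus and 103 on the minus strand. Another listed gene overlapped 51 of them (25.5%), against 17 of the 200 next in span (8.5%). A whole gene lay inside 35 of the 51, and 31 were overlapped by a gene on the opposite strand, against 11 and 15 of the 200 next in span. A longer span has more room to overlap another gene, and the share over all expressed genes was not computed. Whether counting used strand is not given in the sources used here, so the FPKM of overlapped genes may include a partner's fragments.

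Only 1 pair of long genes overlapped each other. The gene evm.TU.CM024163.1.35 (904421 to 1040441 on the minus strand of its sequence) had 5.36, 4.26 and 0.572 FPKM in Mu_E_1, Mu_E_2 and Mu_E_3. The joined model evm.TU.CM024163.1.36_evm.TU.CM024163.1.35 (904421 to 1130613, same strand) had 10.7, 7.58 and 1.34 FPKM. Its identifier contains the first gene's, so the pair is not 2 independent loci and its values are uncertain.

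At the length threshold, evm.TU.CM024163.1.340 (117334 bp; 1.09, 2.28 and 0.672 FPKM in Mu_E_1, Mu_E_2 and Mu_E_3) and evm.TU.CM024121.1.295 (117015 bp; 20.4, 36 and 42.3 FPKM) were the last included. The first left out were evm.TU.CM024140.1.366 (116771 bp; 50.9, 43.4 and 11.2 FPKM) and evm.TU.CM024109.1.5 (116725 bp; 4.71, 3.69 and 4.28 FPKM). Nearest the expression threshold were evm.TU.CM024148.1.165 and evm.TU.CM024111.1.119, with mean FPKM of 1.04 and 1.07. The first of these had 1, 3 and 0 fragments, and its 0 in Mu_E_3 allows up to 0.820 FPKM by the rule of 3 fragments.

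For the long genes the median FPKM was 7.37, 6.89 and 4.39 in the libraries Mu_E_1 to Mu_E_3, against 6.09, 5.67 and 5.67 in the other expressed genes. After conversion to log2(FPKM + 1), the median of the long genes minus that of the others was 0.24, 0.24 and -0.31, a mean of 0.06 ± 0.32 (SD, n = 3 libraries). It was smaller than the spread between the libraries, and its sign was not the same in all of them. Without Mu_E_1 the mean was -0.03. Against the 200 next in span, whose medians were 9.27, 8.27 and 4.98 FPKM, the difference was -0.29, -0.23 and -0.15, a mean of -0.23 ± 0.07, lower in 3 of 3 libraries. Span and mean FPKM were not ordered alike within the long genes (Spearman rho = 0.03, n = 200 genes of the same libraries). As FPKM divides by exon length, the precision came from fragments, with a median of 87, 84.5 and 123 fragments per long gene against 32, 29 and 83 in the other expressed genes. Under 10 fragments were behind the value of 14, 20 and 8 long genes.

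The 10 longest genes covered a wide range of abundance. The longest, evm.TU.CM024155.1.239, spans 612235 bp (7224550 to 7836784, minus strand) with a 1192 bp exon model, and had 34.3, 21.3 and 9.48 FPKM in Mu_E_1, Mu_E_2 and Mu_E_3. The next, evm.TU.CM024161.1.253 (568230 bp; 7919698 to 8487927, minus strand), had 7.58, 4.54 and 3.15 FPKM. The third, evm.TU.CM024165.1.371 (498345 bp; 10815865 to 11314209, plus strand), had 3.23, 6.48 and 1.18 FPKM. In all 10, Mu_E_3 gave the lowest deposited FPKM, but in only 3 of the 10 when FPKM was based on the fragments recovered per library. The most abundant of the 10 was evm.TU.CM024097.1.318 (365595 bp; 8941809 to 9307403, plus strand), with 455, 690 and 58.2 FPKM. The lowest mean of the 10 was 1.95 FPKM, in evm.TU.CM024146.1.329 (419326 bp).

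The highest mean FPKM among the long genes belonged to the joined model evm.TU.CM024100.1.178_evm.TU.CM024100.1.180 (206085 bp), with 763, 971 and 229 FPKM in Mu_E_1, Mu_E_2 and Mu_E_3. A second joined model, evm.TU.CM024136.1.473_evm.TU.CM024136.1.474 (153865 bp), had 734, 389 and 127 FPKM. After evm.TU.CM024097.1.318 came evm.TU.CM024156.1.220 with 494, 480 and 132 FPKM and evm.TU.CM024120.1.86 with 422, 456 and 132 FPKM. In each of these 5 the value of Mu_E_3 was the lowest, on both scales.

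**Figure D2:**
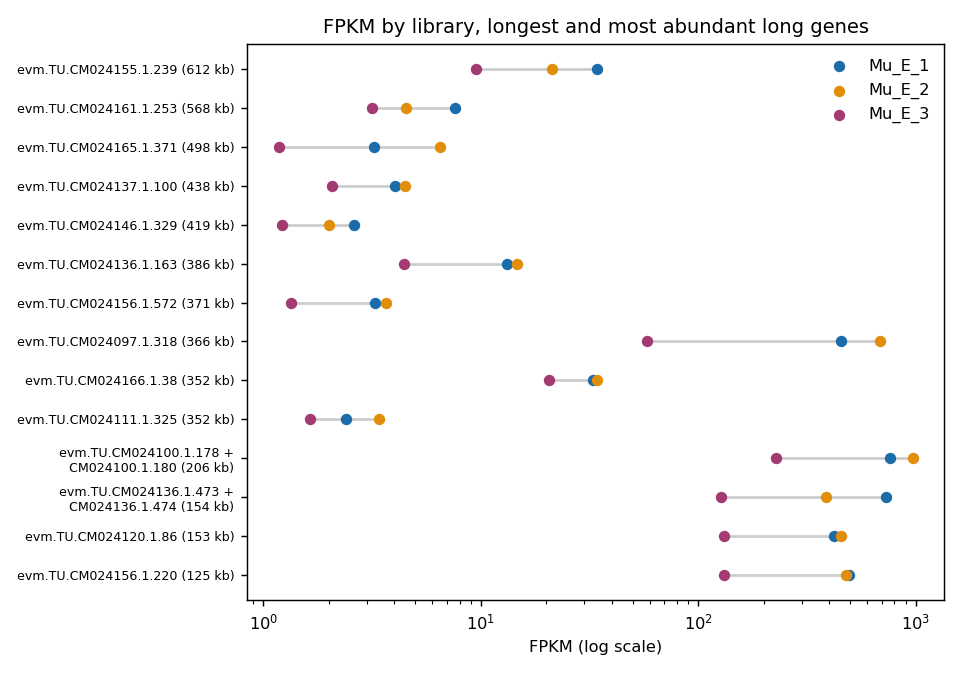
FPKM (log scale) of the 10 longest genes and the 5 with the highest mean FPKM, of which 1 belongs to both, in order of span from the top, with 1 point per library. The point of Mu_E_3 is the lowest in all 14 genes shown, against 7 of the 14 when FPKM is based on the fragments recovered per library, and the means run between 1.95 and 654 FPKM.

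The long genes were low in Mu_E_3 relative to the other expressed genes. In the deposited FPKM, Mu_E_3 was the lowest library in 150 of the 200 long genes (75%), where 45.8% of all expressed genes had their lowest FPKM in Mu_E_3, and in 130 of the 200 next in span (65%). The median log2 ratio of Mu_E_3 to the mean of the other libraries was -0.75 in the long genes, -0.61 in the 200 next in span and -0.22 in all other expressed genes. The long genes thus lay 0.53 log2 units under the other expressed genes in this 1 library, a description of 1 crab's RNA-seq library with no replicate. The direction of the ratio itself depends on the scale. The deposited FPKM correspond to library sizes of 4063620, 3868360 and 11153100 fragments in Mu_E_1, Mu_E_2 and Mu_E_3, while the listed genes hold 7088747, 7524721 and 7788537 recovered fragments. With FPKM set on those fragments instead, the median ratio was 0.30 in the long genes against 0.87 in the other expressed genes. On that scale Mu_E_3 was the lowest library in 48 long genes (24%), where 11.9% of all expressed genes had their lowest value there. A change of library size shifts all genes of a library alike, so apart from the pseudocount the gap between long and other genes, -0.57 on that scale, is fixed by construction. The sign of the ratio and the count of long genes lowest in Mu_E_3 are not.

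The gap to the other expressed genes was present at each level of expression. Among genes with a mean FPKM of 1 to 2, the median ratio of Mu_E_3 to the other libraries was -0.55 in 36 long genes and -0.03 in the other expressed genes. At 2 to 5 it was -0.54 in 50 long genes and -0.01 in the others, and at 5 to 20 it was -0.76 in 63 long genes and -0.20 in the others. The lowest ratios were those of the abundant genes, with -1.50 in 51 long genes at 20 FPKM or more and -0.70 in the others. The 200 next in span shared much of this, with -0.32, -0.53, -0.54 and -1.13 from the lowest to the highest level. At 2 to 5 FPKM they were close to the long genes. With FPKM based on the recovered fragments, the ratios were 0.25, 0.44, 0.43 and -0.15 in the long genes and 0.73, 0.97, 1.02 and 0.66 in the others, where the order of the sets is again fixed by construction. Split by exon length into 5 equal classes of all expressed genes, the long genes had the lower ratio in the 4 classes of longer exons. In the shortest class, which held 12 long genes, the medians were -0.38 and -0.39. Across all expressed genes the ratio was not a steady function of span, with medians of -0.35, -0.10, -0.03, -0.18 and -0.50 from the shortest to the longest of 5 equal classes. Mu_E_3 also differed in composition, as its 10 most abundant genes held 17.8% of the fragments, against 33.6% in Mu_E_1 and 32.5% in Mu_E_2. The part of that difference in the gap was not tested.

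**Figure D3:**
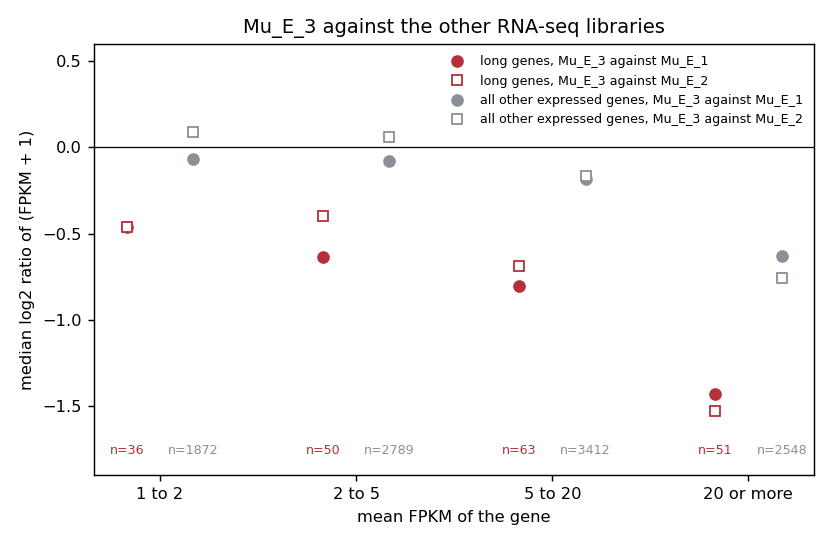
Median log2 ratio of (FPKM + 1) in Mu_E_3 to Mu_E_1 (filled circles) and to Mu_E_2 (open squares), by mean FPKM of the gene, for the long genes (red, left) and all other expressed genes (grey, right), with the number of genes below. In the deposited FPKM the long genes lie under the others in all 4 classes, and both are lowest at 20 FPKM or more. With FPKM based on recovered fragments, the ratios to the mean of both libraries were above 0 in 3 of the 4 classes of long genes.

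The long genes that differed most between crabs followed the same order of libraries. The largest SD on the log2(FPKM + 1) scale was 1.98, in evm.TU.CM024134.1.115 (118031 bp), with 383, 501 and 40.2 FPKM in Mu_E_1, Mu_E_2 and Mu_E_3. It was followed by evm.TU.CM024097.1.318 with an SD of 1.90 and by evm.TU.CM024128.1.283 with an SD of 1.74. The last had 17, 17.1 and 1.24 FPKM from 45, 43 and 9 fragments. All 3 were low in Mu_E_3 alone, on both scales. The opposite order was seen in evm.TU.CM024121.1.295, whose 42.3 FPKM in Mu_E_3 exceeded 20.4 and 36 FPKM in Mu_E_1 and Mu_E_2. The typical spread of a long gene was that of any expressed gene, with a median SD of 0.58 against 0.59. When FPKM was instead based on the fragments recovered per library, the median SD of the long genes was 0.25 lower than that of the others.

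A start peak, an ATAC-seq peak touching the 2 kb on either side of the listed start, was found at 62.0, 64.0 and 64.0% of the long genes in Mu_E_1, Mu_E_2 and Mu_E_3, against 49.1, 47.3 and 50.4% of the other expressed genes. The means were 63.3 ± 1.15% and 48.9 ± 1.54% (SD, n = 3 libraries). The difference, 14.4 ± 2.02 percentage points, had the same sign in 3 of 3 libraries and was larger than the spread between them, although 3 libraries cannot give a two-sided exact sign test a p below 0.25. Against the 200 next in span, at 59.8 ± 3.06%, the difference was 3.5 ± 4.0 percentage points and lay within the spread. A start peak was present in all 3 libraries in 119 long genes (59.5%), where 42.1% of all expressed genes had one in all 3. It was absent from every library in 64 long genes (32%), where 43.3% of all expressed genes lacked it, and 17 had it in 1 or 2 libraries.

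Part of the difference in start peaks went with the kind of gene model. Among models whose exon length was a multiple of 3, 51.2% of the long genes and 34.5% of the others had a start peak in all 3 libraries. Among the remaining models the shares were 65.8% and 58.4%. Joined models had one in 82.1% of the long genes and 55.2% of the others, and single models in 55.8% and 41.6%. The long genes had the higher share within each of these classes, with the smallest gap where the exon length was no multiple of 3. This did not hold for every class of exon length. Over 5 equal classes of all expressed genes, the long genes had shares of 66.7, 45.5, 34.6, 57.1 and 67.6%. In the others the share rose with exon length, at 29.9, 33.8, 40.0, 46.8 and 59.4%. The long genes were thus lower in the middle class, which held 26 of them, and 102 lay in the class of longest exons.

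Start peaks of the long genes lay nearer the start and were stronger than those of the other expressed genes. The nearest summit lay a median of 58, 59 and 57 bp from the listed start of the long genes in Mu_E_1, Mu_E_2 and Mu_E_3, against 102, 99 and 91 bp in the other expressed genes and 60, 45.5 and 42 bp in the 200 next in span. It lay within 500 bp in 91.1, 87.4 and 92.9% of long genes with a summit, against 74.9, 75.7 and 76.5% in the other expressed genes. In the 200 next in span the shares were 84.6, 90.2 and 89.1%, close to those of the long genes. The median fold enrichment of start peaks over local background, compared within each library, was 5.78, 6.45 and 6.44 in the long genes, against 4.45, 4.73 and 4.70 in the other expressed genes, and 0.50 ± 0.12 above that of the 200 next in span. Among the 10 longest genes, evm.TU.CM024161.1.253 had start peaks of 15.8, 16.2 and 15.5-fold enrichment and evm.TU.CM024097.1.318 of 15.5, 14.5 and 15.0-fold. Long genes with a start peak in all 3 libraries had higher FPKM than those with none, with medians 0.71 ± 0.03 log2 units apart (SD, n = 3 libraries; FPKM + 1). The same difference was 0.62 ± 0.11 in the other expressed genes. FPKM did not rise steadily with the number of libraries that had the peak. The 17 long genes with one in 1 or 2 libraries had medians of 15.7, 12.9 and 7.50 FPKM in Mu_E_1, Mu_E_2 and Mu_E_3. Those with one in all 3 had 9.19, 7.82 and 4.60 FPKM.

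The longest gene was among the 64 with no start peak. The nearest upstream peak of evm.TU.CM024155.1.239 lay 2664, 2663 and 2654 bp before its listed start in Mu_E_1, Mu_E_2 and Mu_E_3, just outside the window. This was not typical of the 64 genes, whose nearest upstream peak lay a median of 38330, 40294 and 36400 bp away. It lay within 10 kb in 8, 7 and 10 of them, and in all 3 libraries in 5. Body peaks without a start peak were the more common case. Of the 64, 42 had a body peak in all 3 libraries and no start peak in any (21% of the long genes), where 5.66% of all expressed genes did. A longer body offers more room for a peak, and the share was 20.0% in the 200 next in span.

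A peak touching the span outside the start window was counted as a body peak. The long genes held 1649, 1415 and 1743 body peaks in Mu_E_1, Mu_E_2 and Mu_E_3, with a median of 4, 4 and 5 per gene. At least 1 was found in all 3 libraries in 152 long genes (76.0%), where 16.7% of all expressed genes had one and 71.0% of the 200 next in span. Both a start and a body peak in all 3 libraries were found in 97 long genes (48.5%), where 8.77% of all expressed genes had both and 41.5% of the 200 next in span. Per length the long genes were not unusual. Their density was 4.60, 3.94 and 4.86 body peaks per 100 kb, a mean of 4.47 ± 0.47 (SD, n = 3 libraries), against 4.45 ± 0.30 in the other expressed genes. The ratio of the densities, 1.00 ± 0.04, did not differ from 1 beyond the spread. The 200 next in span held 5.71 ± 0.43 per 100 kb, so the long genes had 0.781 ± 0.033 of their density, lower in 3 of 3 libraries. Correspondingly, the long genes took 20.8, 20.1 and 21.5% of the body peaks of all expressed genes with 20.8% of the body length.

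The even mean hid an uneven distribution. The 10 long genes with the most body peaks held 25, 24.4 and 24% of them in Mu_E_1, Mu_E_2 and Mu_E_3, and 20 genes held 40.7, 38.5 and 38.8%. The longest gene, evm.TU.CM024155.1.239, had the most, with 67, 57 and 64. It was followed by evm.TU.CM024097.1.318 with 45, 46 and 53, evm.TU.CM024136.1.167 (262545 bp) with 48, 37 and 45, evm.TU.CM024161.1.253 with 41, 41 and 42, and evm.TU.CM024156.1.572 (371385 bp) with 38, 31 and 40. Some of the longest genes had few body peaks. The third longest gene, evm.TU.CM024165.1.371, had 1, 1 and 0 body peaks in 498345 bp, and evm.TU.CM024137.1.100 had 4, 3 and 6 in 437827 bp. Span and body peak density were not ordered alike among the long genes (Spearman rho = 0.02, n = 200 genes of the same libraries). Density is already divided by length, so this coefficient does not describe the counts. The libraries ordered the genes alike in body peaks, with rho between 0.92 and 0.96 for each pair of ATAC-seq libraries.

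**Figure D4:**
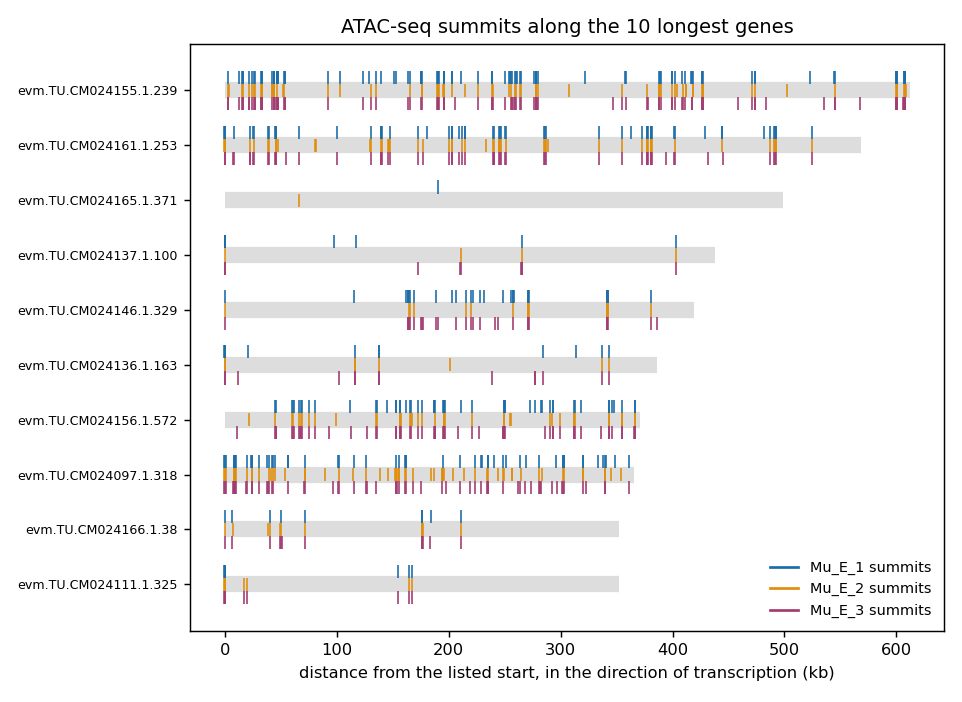
Positions of ATAC-seq summits along the 10 longest genes in kb from the listed start, drawn in the direction of transcription, with a grey bar for the span and ticks for Mu_E_1, Mu_E_2 and Mu_E_3 from top to bottom in each gene. Many summits line up between libraries and others do not: over all long genes, 57.5 ± 6.93% of the body peaks were found in both other libraries (SD, n = 3). The gene evm.TU.CM024165.1.371 has 1 summit in Mu_E_1 and 1 in Mu_E_2, at different places, in 498 kb.

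Body peaks were denser in the more abundant long genes. The density was 1.21 ± 0.02 per 100 kb at a mean FPKM of 1 to 2, 1.85 ± 0.21 at 2 to 5, 4.66 ± 0.56 at 5 to 20 and 9.06 ± 0.93 at 20 or more (SD, n = 3 libraries). In the other expressed genes the corresponding values were 2.19 ± 0.13, 2.48 ± 0.10, 3.85 ± 0.25 and 8.75 ± 0.70. The highest class of the long genes thus had 7.48 ± 0.66 times the density of the lowest, against 5.05 ± 0.38 times in the 200 next in span and 3.98 ± 0.09 times in the other expressed genes. The ratios of the long genes, between 6.75 and 8.03, did not overlap those of either set. Long genes of low FPKM had sparser peaks than other genes of that level, in 3 of 3 libraries for both classes under 5 FPKM. At 5 to 20 FPKM the long genes were denser in 3 of 3 libraries. Their values were 4.79, 4.05 and 5.15 per 100 kb in Mu_E_1, Mu_E_2 and Mu_E_3, against 3.95, 3.57 and 4.03. At 20 FPKM or more they were also denser than the other expressed genes in 3 of 3, at 9.37, 8.02 and 9.80 against 9.10, 7.95 and 9.20. The 200 next in span had 11.07 ± 1.01 there, and the long genes were sparser in 3 of 3 libraries. At 5 to 20 FPKM that set had 4.77 ± 0.39, and the long genes were denser in Mu_E_1 only. At 1 to 2 and 2 to 5 it had 2.19 ± 0.09 and 2.47 ± 0.07, with the long genes sparser in 3 of 3. The larger ratio of the long genes than of that set thus came from the lowest class. Gene by gene, density and mean FPKM had a Spearman rho of 0.68 across the 200 long genes, 0.56 across the 200 next in span and 0.20 across 8670 other expressed genes with a body. Genes of 1 set share their libraries, and short bodies often hold no peak, so these coefficients are descriptions. Start peaks followed the same order more weakly, at 54.6, 60.0, 61.4 and 75.2% of the long genes from the lowest to the highest class.

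**Figure D5:**
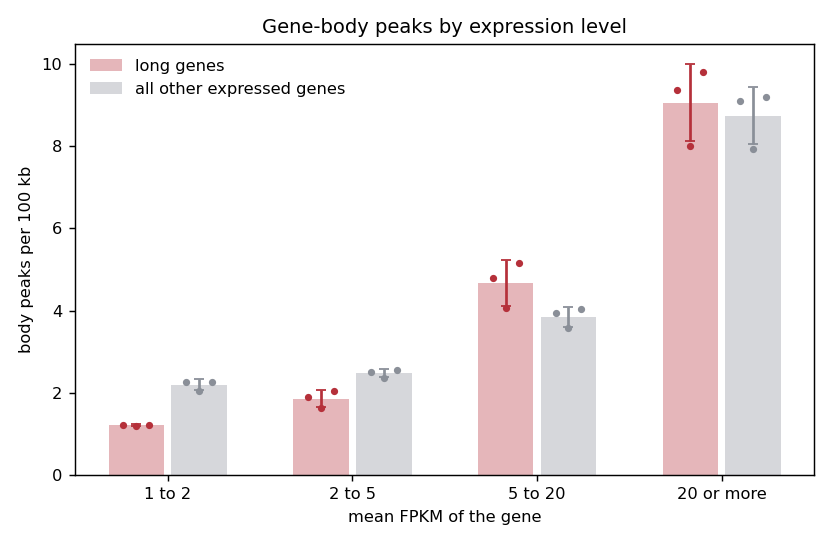
Body peaks per 100 kb by mean FPKM of the gene for the long genes (red, left) and all other expressed genes (grey, right), with bars for the mean of the 3 ATAC-seq libraries, error bars for the SD and points for the libraries. The long genes run between 1.21 and 9.06 per 100 kb, and the others between 2.19 and 8.75.

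The most abundant long genes show both ends of this relation. The joined model evm.TU.CM024136.1.473_evm.TU.CM024136.1.474, with a mean of 417 FPKM, had 34, 22 and 37 body peaks in Mu_E_1, Mu_E_2 and Mu_E_3, or 20.4 per 100 kb. The highest density of any long gene was 23 per 100 kb, in evm.TU.CM024134.1.115, with 26, 21 and 33 body peaks. In contrast, evm.TU.CM024100.1.178_evm.TU.CM024100.1.180, the most abundant at 654 FPKM, had 5, 7 and 6, or 2.94 per 100 kb, and a start peak in Mu_E_2 and Mu_E_3 only. The starts and densities of joined models are uncertain, since their parts may be separate genes.

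Along the body, the pooled summits of the long genes declined slightly in the direction of transcription. Genes with many summits weigh more in such a pool, and the decline was not examined gene by gene. The 5 equal parts of the body held 22.6, 20.6, 20.4, 19.3 and 17% of the summits from first to last, as means over 3 libraries. The first part had 1.33 ± 0.02 times the summits of the last (SD, n = 3 libraries), against 1.28 ± 0.09 times in the other expressed genes, a difference within the spread. In the 200 next in span the ratio was 1.46, 1.70 and 1.42 in Mu_E_1, Mu_E_2 and Mu_E_3, above that of the long genes in 3 of 3 libraries. Few body peaks of the long genes lay within 2 kb of another gene's start, 1.25 ± 0.20% against 4.05% in the other expressed genes. In the 200 next in span it was 2.06 ± 0.18%.

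Peaks at the starts of long genes recurred between crabs more often than peaks in their bodies. Of the start peaks, 81.2, 88.2 and 84.0% in Mu_E_1, Mu_E_2 and Mu_E_3 overlapped a peak in both other libraries, against 55.8, 65.2 and 51.6% of the body peaks. The difference was 27.0 ± 4.84 percentage points in the long genes and 17.8 ± 1.90 points in the other expressed genes. It was 23.2 ± 3.73 points in the 200 next in span. By library the difference was 25.4, 23.1 and 32.4 points in the long genes against 20.2, 22.0 and 27.3 in those 200. It was thus somewhat larger in the long genes in 3 of 3 libraries. With Mu_E_2 left out, a peak needed to recur in only 1 other library and the difference in the long genes was 15.8 points. Start peaks were also stronger, with a median fold enrichment 1.59 ± 0.13 times that of body peaks in the long genes, against 1.21 ± 0.05 times in the others and 1.54 ± 0.10 times in the 200 next in span. Against the 200 next in span this ratio was higher in Mu_E_1 and Mu_E_3 and lower in Mu_E_2. Start peaks of the long genes were wider as well, with median widths of 567, 553.5 and 719 bp against 327, 332 and 354 bp for body peaks. A wider peak has more room to overlap another, and the part of width in the recurrence was not tested. Strength went with recurrence. Among peaks of the long genes at or under 3-fold enrichment, 39.3, 62.5 and 41.2% of start peaks and 26.3, 44.5 and 19.3% of body peaks were found in both other libraries. This class held only 28, 16 and 17 start peaks. Between 6 and 10-fold the shares were 100, 100 and 100% of start peaks and 97.0, 91.8 and 90.1% of body peaks. The start peaks had the higher share in each library in all 4 classes up to 10-fold, and above it the shares were 100% for start peaks and at least 98.8% for body peaks.

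No start or body peak was listed in any library for 12 long genes (6%), where 32.6% of all expressed genes and 6.5% of the 200 next in span had none. Their mean FPKM ran between 1.04 and 8.78, with a median of 1.64, against 5.79 over all long genes. The 2 with the largest spans were evm.TU.CM024118.1.465 (173239 bp), with 2.21, 2.32 and 1.02 FPKM (11, 11 and 14 fragments) in Mu_E_1, Mu_E_2 and Mu_E_3, and evm.TU.CM024110.1.151 (169536 bp), with 1.87, 1.27 and 0.720 FPKM (17, 11 and 18 fragments). A missing peak means that none passed the caller's threshold at this depth, not that the chromatin was closed.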

How the data were processed

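RNA-seq and ATAC-seq libraries of the same 3 crabs were used. Per the study's methods, the authors aligned RNA reads with HISAT2 2.0.5, counted fragments with featureCounts 1.5.0-p3 and deposited FPKM with each gene's position and exon-model length. The authors used BWA for the ATAC-seq reads and MACS2 for peaks, library by library. The deposited peak lists hold positions, a score (not used), a fold enrichment (a ratio to local background), and the −log10 of each p-value and q-value. The name of the assembly version, strandedness of counting and any shift of ATAC-seq reads are not given in the sources used here. A genome sequence was not used here.

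Fragments were recovered from FPKM times exon length, where 100% of the non-zero values were whole within 0.05. They gave 7088747 to 7788537 fragments per library, and the peak lists held 44610 to 52473 distinct intervals, so values near 0 are imprecise. FPKM were compared as log2(FPKM + 1), which understates changes of low genes. Body length is the span outside the start window. Peaks were shared when they overlapped by at least 1 bp. Differences are given as mean ± SD over libraries without a test, since 1 condition was sampled and genes are not replicates. Replicate numbers served as names only. Members, lists and rules were chosen with earlier results of these data known. The named genes are the 10 largest spans, the 5 highest means, the 5 with most body peaks, the 3 lowest and 3 highest exon shares, the 3 largest SD, genes at both thresholds, the 2 longest without a peak and members that overlap each other. No gene that the paper names is among the 200. Python 3.11.15, numpy 2.4.6, pandas 2.3.3, scipy 1.17.1 and matplotlib 3.10.9 were used, and the counting steps were tested on simulated data. Alternatives covered the pseudocount, FPKM filter, number of genes, joined models, peak threshold, start window, overlap rule and leaving out each library.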

Additional observations from a re-analysis of the deposited data

How the results depend on the processing

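Of 109 alternative values of 10 results, 60 moved by less than 1 SD over libraries, 49 moved further or had no such SD, and no difference larger than its SD changed sign. For the gap in Mu_E_3 the SD was taken over its ratios to Mu_E_1 and to Mu_E_2, which share a library. That SD was only 0.008, so even small movements of the gap were counted as further. No paired analysis was possible because 1 group leaves no comparison between groups in which a replicate block could be fitted. Each crab gave a library of both assays, and across long genes body peak density and FPKM of the same number had a Spearman rho of 0.66, 0.61 and 0.61 (200 genes of 1 pair of libraries each). Results on the Mu_E_3 ratio, on body peak density by FPKM class, and the settings of 10 fragments in every library were chosen after seeing the data. The median exon share was 1.88% where each library had to reach an FPKM of 1, 1.40% without an FPKM filter, 1.54% for 100 genes, 2.13% for 400 genes, 1.76% without joined models, and 1.66 to 1.70% when an RNA-seq library was left out. The start peak difference was 12 points without an FPKM filter, 21.3 for 100 genes, 11.6 without joined models, 18.4 at a q-value of 1e-05 or less, 18.4 with a 1 kb window and 9.89 with a 3 kb window. The difference in median FPKM ran between -0.025 and 0.13 (log2) when an RNA-seq library was left out. The density ratio was 1.09 where each library had to reach an FPKM of 1, 0.942 without a filter and 1.15 for 400 genes, and its 10 other alternatives ran between 0.969 and 1.03. The ratio of the first to the last part of the body was 1.41 where each library had to reach an FPKM of 1, 1.43 without a filter, 1.49 for 100 genes, 1.40 for 400 genes, 1.28 without joined models, 1.51 at the stricter q-value, 1.35 with a 3 kb window and 1.35 without body peaks near another start. Sharing of start over body peaks was 20.0 points with 50% overlap, and 15.8 to 23.6 points when an ATAC-seq library was left out, where a peak needs to recur in fewer libraries. Fold enrichment of start over body peaks was 1.80 for 100 genes and 1.43 at the stricter q-value. The median SD difference, near 0, was 0.0901 with a pseudocount of 0.1, -0.25 on own fragments, 0.0576 where each library had to reach an FPKM of 1, -0.0204 without a filter, -0.0198 for 100 genes, -0.0065 for 400 genes, -0.00076 without joined models and -0.0660 to 0.0865 when a library was left out. The gap in Mu_E_3 was -0.68 with a pseudocount of 0.1, -0.57 on own fragments, -0.56 for 100 genes, -0.48 for 400 genes, -0.54 without joined models, -0.49 with 10 fragments in every library, and -0.57 and -0.60 without Mu_E_1 and Mu_E_2. It cannot be computed without Mu_E_3. The ratio of the highest to the lowest FPKM class in density was 6.47 for 400 genes and 8.95 at the stricter q-value. The causes of these movements were not tested beyond what each setting changes.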

Other observations

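The far ends of the long genes were less often marked than those of other genes. A peak within 2 kb of the listed end was found in 12.5, 8.0 and 16.5% of the long genes in Mu_E_1, Mu_E_2 and Mu_E_3, against 19.0, 16.5 and 18.5% of the other expressed genes. The difference was -5.67 ± 3.30 percentage points (SD, n = 3 libraries), negative in 3 of 3 libraries. An end peak recurred in all 3 libraries in 11 long genes (5.50%), where 12.1% of all expressed genes had one in all 3. Against the 200 next in span, at 15.7%, the difference was -3.33 ± 3.62 points and lay within the spread. In short genes the window at the end can reach the start, and the part of this in the difference was not tested.

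Long genes kept a similar order of abundance in the 3 crabs. Spearman's rho between RNA-seq libraries across the 200 long genes was 0.88 for Mu_E_1 and Mu_E_2, 0.84 for Mu_E_1 and Mu_E_3 and 0.86 for Mu_E_2 and Mu_E_3. Across the other expressed genes it was 0.85, 0.71 and 0.74. Long genes rest on more fragments per gene, and the part of that in the higher coefficients was not tested. The 200 long genes held 1.69, 1.62 and 1.26% of all fragments in Mu_E_1, Mu_E_2 and Mu_E_3.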
